A study of Citrullus lanatus with 30 samples.

Results

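The loci described here were chosen because their transcript level in watermelon (Citrullus lanatus) fruit flesh peaked 5 days after pollination (DAP) and was low before and after. The set holds 100 of the 22596 loci with values. Members were selected on group means: a locus entered where its mean at 5 DAP was at least 10 FPKM (fragments scaled by transcript length and by the size of the library), at least 4 times the mean at 0, 20 and 30 DAP, and at least 2 times the mean at 10 DAP. Means of 0 DAP took replicates 1 and 2 and means of 20 DAP took replicates 2 and 3. Replicate 3 of 0 DAP and replicate 1 of 20 DAP were thus not used to choose the loci. The levels at 0, 5, 10, 20 and 30 DAP made the choice and are given as a description, with no test.

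The RNA-seq libraries came from fruit of cultivar 97103 and of plants with no cultivar label. Flesh of 97103 gave 3 libraries at each of 6 ages: 0 DAP under the label PD, 1 DAP under AP, 5 DAP under SW, 10 DAP under BW, 20 DAP under CT and 30 DAP under RF. Flesh of 20 DAP was also sampled as 3 libraries labelled Mock (genotype Wild-type) and 3 labelled 5_Aza, whose treatment label reads 5-zazcytidine, with no dose or time. Rind of 97103 gave 2 libraries of 20 DAP, labelled R4_CT, and 2 of 30 DAP under each of the labels R4_RF and R2_RF; their source is rind, their tissue label says flesh, and the labels do not explain R2 and R4. Whether the replicates are separate fruits or plants is not in the labels. P-values therefore measure no more than the spread among these libraries, and that spread may be technical.

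A watermelon fruit grows from the ovary after pollination. In fleshy fruit a short period of cell division is followed by growth through cell enlargement, and sugars and pigments accumulate later, at ripening. Whether a maximum at 5 DAP falls in the period of division or early enlargement was not examined here. 5-Azacytidine, the compound whose name the treatment label resembles, is an inhibitor of DNA methyltransferases and lowers cytosine methylation in dividing cells. The files name loci by coordinates on the WM97pbV1 sequences, so each locus is given as chromosome, start and end, and what it encodes, its sequence and its exons were not analysed here. For the same reason the tissues were not checked against marker genes.

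At 5 DAP the member loci spanned a wide range of levels. Their SW means ran from 10.8 to 8334 FPKM with a median of 30.6 FPKM, and 39 of them lay between 10 and 20 FPKM, 29 between 20 and 50, 13 between 50 and 100, and 19 above 100. The coefficient of variation between the 3 SW libraries had a median of 4.02%, against 3.32% over all 10249 loci at 10 FPKM or more in SW. In 99 of the 100 loci every SW library was above every PD, BW, CT and RF library. The exception was chr10:20852067-20852294, a locus of 228 bases, at 15.4, 18.4 and 6.82 FPKM in SW and 5.99, 8.28 and 3.36 FPKM in BW. The rule asked for SW means well above those of the same groups, so libraries that do not overlap were favoured in advance. That count was not made for other loci, and nothing is read from it.

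Together the member loci made up 2.24% ± 0.0386 (SD, n = 3) of the summed FPKM at 5 DAP. The share was 0.158% in PD, 0.204% in the single usable library of 1 DAP, 0.401% in BW, 0.0440% in CT and 0.0165% in RF. Without the highest locus it was still 1.15% ± 0.0105 at 5 DAP and 0.218% at 10 DAP. In bulk tissue, fewer cells of a type and less RNA per cell cannot be told apart.

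**Figure D1:**
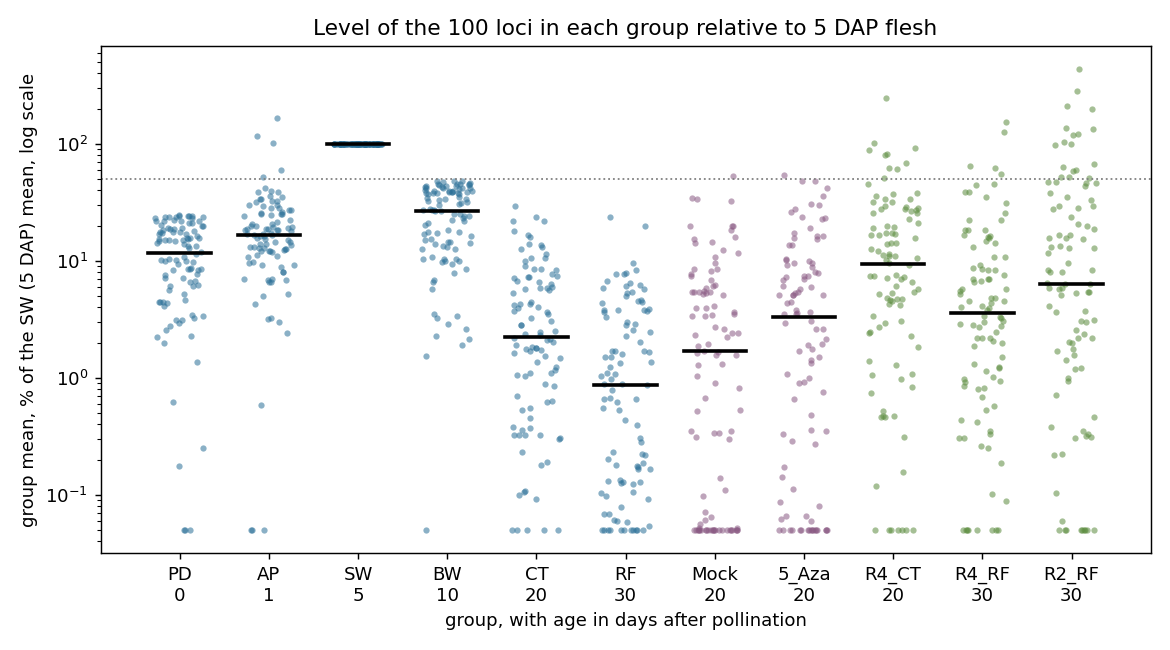
Mean level of each member locus in each group as a percentage of its SW mean (log axis, values under 0.05% drawn at 0.05), with the group's age in DAP under its label; each point is a locus, black bars are medians and the dotted line marks 50%. The median is 26.9% in BW, 2.24% in CT and 0.876% in RF, and individual loci reach or pass 100% in AP and in the rind groups.

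The plot of levels relative to 5 DAP shows the rise and the decline. In the median member the level was 11.7% of SW in PD, 16.8% in AP, 26.9% in BW, 2.24% in CT and 0.876% in RF. Members at 1 FPKM or more numbered 85 in PD, 94 in BW, 47 in CT and 30 in RF. The stage next in level to SW was BW in 80 members, PD in 17 and CT in 3, and RF was the lowest of the 5 stages in 69. The rule let BW stand nearer to SW than PD, CT or RF, so BW as the next stage was favoured in advance.

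The highest locus was chr2:5131165-5133091. Its libraries held 369, 373 and 376 FPKM in PD, 8032, 8624 and 8347 FPKM in SW, and 1498, 1475 and 1482 FPKM in BW. In CT they held 168, 164 and 106 FPKM and in RF 15.8, 15.7 and 11.7 FPKM. This locus alone supplied nearly as much of the summed FPKM at 5 DAP as the other members together.

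The locus next in level, chr5:34463176-34466246, held 1399, 1414 and 1430 FPKM at 5 DAP after 63.2, 61.1 and 62.2 FPKM at 0 DAP. It held 204, 205 and 207 FPKM in BW and 6.44, 6.47 and 6.18 FPKM in CT. Unlike the highest locus it was near its floor everywhere else, at no more than 1.81 FPKM in any library of rind, Mock or 5_Aza.

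Another pair of loci with high SW levels was already low again by 10 DAP. chr5:6422414-6424155 held 777, 803 and 815 FPKM in SW and 53.9, 56.8 and 54.0 FPKM in BW, close to the 49.6, 51.8 and 59.4 FPKM of 0 DAP. chr10:24604201-24606517 held 715, 734 and 736 FPKM in SW and 42.3, 43.6 and 40.1 FPKM in BW. At 10 DAP the first was thus near its 0 DAP level and the second, at 81.3, 78.9 and 77.6 FPKM in PD, well below it.

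A slower decline marked chr6:951879-954974, at 623, 644 and 638 FPKM in SW, 253, 252 and 253 FPKM in BW and 2.46, 2.63 and 1.13 FPKM in CT. Of the remaining 10 members among the 15 highest, chr9:25809687-25810289 (407 FPKM in SW), chr4:1853591-1853902 (359), chr2:37245856-37260161 (344), chr3:30785741-30788654 (268) and chr9:25753697-25754305 (211) came next. The other 5 lay between 121 and 149 FPKM: chr8:25625376-25629515, chr5:4222927-4224773, chr8:25294068-25297524, chr4:1839296-1839637 and chr9:12561741-12569796.

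**Figure D2:**
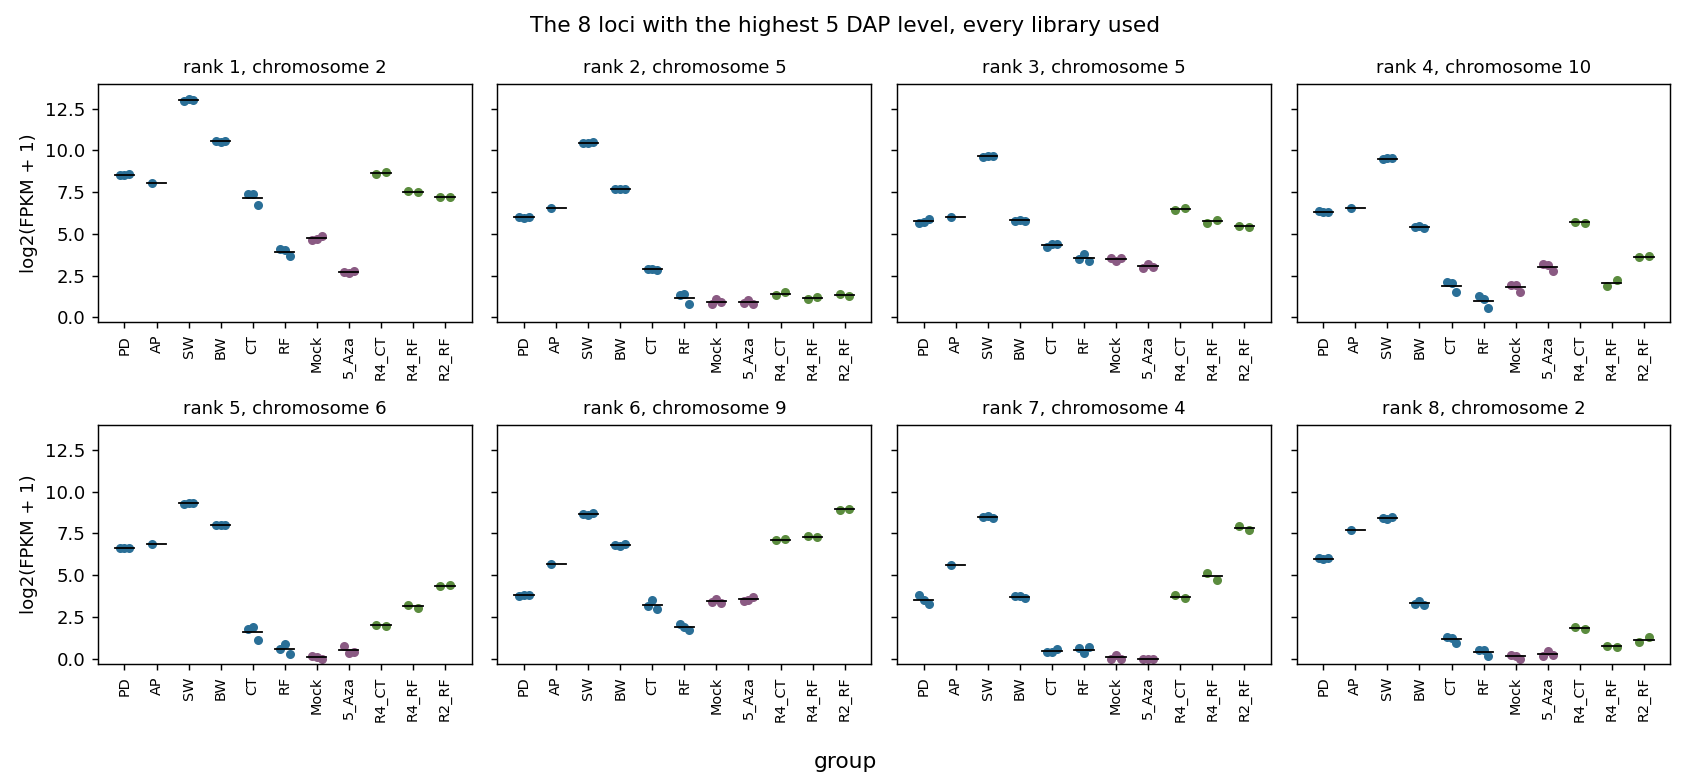
FPKM of the 8 member loci with the highest SW means in every library used, on a log2(FPKM + 1) axis, by group in order of age for flesh, then Mock, 5_Aza and rind; each point is a library. The 3 SW points stand above all other flesh points in each panel, and chr9:25809687-25810289 is the one locus of the 8 with rind points (R2_RF) above SW.

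Per-library values of the 8 highest loci are plotted to show how little the replicates differ beside the stage differences. The depth of reads behind them is unknown, since FPKM carry no counts.

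The speed of the decline after 5 DAP differed among members. BW was under 10% of SW in 18 members, between 10% and 25% in 28 and between 25% and the 50% limit of the rule in 54. Means followed the order SW over BW over CT over RF in 74 members, and in 2438 of the 10249 loci at 10 FPKM or more in SW (23.8%). The rule favours this order, so nothing is read from that contrast.

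The narrowest peaks were those with the largest ratio of SW to the next of the 5 stages. chr4:1853591-1853902 had the largest, 29.5, with 360, 367 and 349 FPKM in SW and 12.5, 12.5 and 11.5 FPKM in BW. At chr3:30785741-30788654 the ratio was 28.4, with 273, 270 and 260 FPKM in SW, 5.82, 5.79 and 6.57 FPKM in PD and 9.28, 10.1 and 8.86 FPKM in BW. At chr5:29950947-29951282 it was 18.4, with 24.5, 25.3 and 24.99 FPKM in SW and no more than 0.702 FPKM in any BW, CT or RF library. In all 3 the libraries of SW were far from those of PD, BW, CT and RF. The ratio leaves out 1 DAP, where chr4:1853591-1853902 held 47.6 FPKM in the single library, above its BW values.

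At chr2:37245856-37260161 and chr9:12561741-12569796 the level at 10 DAP was well under that at 0 DAP. The first held 62.8, 62.1 and 63.0 FPKM in PD, 344, 333 and 355 FPKM in SW and 8.69, 10.1 and 8.18 FPKM in BW. The second held 27.5, 29.0 and 31.0 FPKM, then 118, 120 and 124 FPKM, then 2.60, 2.41 and 2.79 FPKM at the same ages. In both, the libraries of the 3 stages did not overlap and those of 10 DAP were the lowest of the 3.

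PD replicate 3 and CT replicate 1, which the rule did not use, are set beside the SW mean as a description. The SW mean was at least 4 times the unused PD library in 98 of 100 members, against 4.54% of all loci at 10 FPKM or more in SW, and at least 4 times the unused CT library in 98 of 100, against 12.5%. The SW side of these ratios is the one that chose the members, and the other libraries of PD and CT had to be low. High counts were thus favoured in advance, and nothing further is read from them.

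One day after pollination most members were still near their 0 DAP level. A single library of 1 DAP could be used, with a value for 99 members, so nothing at 1 DAP has a replicate. SW was at least 4 times that library in 71 of 99 members (3.81% of all loci at 10 FPKM or more in SW). In 96 of 99 the 1 DAP library lay below the lowest SW library, a count not made for other loci. High SW levels chose the members, so both counts were favoured in advance. Of the 86 members at 1 FPKM or more in PD with a value at 1 DAP, 20 were at least 2 times higher at 1 DAP than in PD, or 23.3%, against 4.7% of the 16059 loci at that level. The median ratio of 1 DAP to 0 DAP was 1.32 in these members and 0.940 in those loci. The PD level had to be low for a locus to be a member, and that level is the divisor here.

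The members highest at 1 DAP were chr2:5131165-5133091 at 263 FPKM, chr2:37245856-37260161 at 207 FPKM and chr6:951879-954974 at 118 FPKM. The first was lower than in every PD library (369 to 376 FPKM) and the second about 3 times its PD values. In 3 members the 1 DAP library was above the SW mean (48.4% of all loci at 10 FPKM or more in SW), namely chr5:30095607-30098724 at 20.2 against 19.8 FPKM, chr2:25860501-25861109 at 19.2 against 16.4 FPKM and chr7:30826341-30826631 at 18.9 against 11.3 FPKM. Only the last 2 exceeded all 3 SW libraries. Their selection follows from their values, and their PD means were 4.18, 2.34 and 0.859 FPKM.

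At the other end were loci with almost no transcript before 5 DAP. The largest ratios of SW to the 1 DAP library were at chr6:763946-764512, which was at 0 in all PD libraries, 0.0805 FPKM at 1 DAP and 13.8, 14.96 and 12.5 FPKM in SW, and at its neighbour chr6:759145-759678, at 0, 0 and 0.109 FPKM in PD, 0.354 FPKM at 1 DAP and 14.1, 15.9 and 13.6 FPKM in SW. The third was chr5:8209466-8210038, at 2.34, 1.32 and 0.949 FPKM in PD, 1.36 FPKM at 1 DAP and 46.8, 42.1 and 46.2 FPKM in SW. At 10 DAP the 3 loci with these largest ratios stood at 48.6%, 31.3% and 37.9% of their SW means, in the same order.

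In the Mock libraries, a separate set of 20 DAP flesh, the median member stood at 1.69% of SW, beside 2.24% in CT of the same age. The rule had asked for a high SW and a low CT, so a large ratio of SW to Mock was favoured in advance. The SW mean was over 4 times the Mock mean in 96 of 100 members, against 14.9% of all loci at 10 FPKM or more in SW. The 4 exceptions were chr11:3118110-3118582, chr1:36301452-36303062, chr3:31745489-31746767 and chr7:25844465-25852251. Of these, chr1:36301452-36303062 was at 11.1, 10.8 and 11.7 FPKM in Mock, 4.68, 4.69 and 4.65 FPKM in CT and 21.9, 20.2 and 21.3 FPKM in SW, so its 2 sets of 20 DAP flesh did not overlap. The stage files give values to 6 significant digits, while those of Mock, 5_Aza and rind give 6 decimals. Such comparisons thus cross 2 file formats, whose part in the result was not tested. The highest members in Mock were chr2:5131165-5133091 (25.9 FPKM), chr2:6836742-6838172 (21.4 FPKM) and chr9:25753697-25754305 (12.96 FPKM).

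Levels of the members in 5_Aza and Mock were compared over 15552 loci with limma on log2(FPKM + 1). In all, 49 of the 100 members reached 1 FPKM in at least 3 of the 6 libraries and were tested. At a Benjamini-Hochberg adjusted p of 0.05, 23 of them were higher in 5_Aza (29.5% of all tested loci were) and 6 lower (13.3%). At least 2-fold, 7 were higher (4.09%) and 1 lower (0.186%), and at a pseudocount of 0.1 FPKM 12 and 2. A locus could enter through the libraries of 1 group alone and then had to differ: 7 of the 23 higher members had every Mock library under 1 FPKM, as did 2 of the 7, and 1 of the 6 lower members had every 5_Aza library under it. The counts and medians of tested members therefore describe these values and support nothing further. The median log2 fold change was 0.32 in the tested members and 0.07 over all loci. Without 5_Aza replicate 1 the count of higher members was 15, and 2 members were lower by at least 2-fold without Mock replicate 1 or 5_Aza replicate 2. Median-of-ratios scaling in place of the deposited scale split the members 22 higher to 6 lower (2 of them at least 2-fold), and all loci moved from 4586 higher and 2064 lower to 3308 and 3479.

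The change of largest size was at chr2:33199676-33201140. It held 0.114, 0 and 0 FPKM in Mock and 15.9, 13.7 and 14.5 FPKM in 5_Aza, a log2 fold change of 3.92, which was 6.84 at a pseudocount of 0.1 in place of 1 FPKM. It passed the filter through 5_Aza alone, so its difference is given as a description, with no test. For comparison it held 28.2, 26.4 and 27.1 FPKM in SW and 9.07, 8.84 and 9.04 FPKM in BW, and no more than 0.532 FPKM in any CT, RF or rind library. Treated flesh of 20 DAP thus stood between the levels of 5 and 10 DAP at this locus, at 54.0% of the SW mean, the one member to reach 50% of SW in 5_Aza.

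Smaller rises were seen at chr8:25625376-25629515, from 2.09, 3.07 and 3.18 FPKM in Mock to 10.4, 10.8 and 9.68 FPKM in 5_Aza (log2 fold change 1.59 ± 0.12, SE, adjusted p = 1.59e-06). At chr11:28426620-28428556 the values went from 3.20, 3.07 and 4.03 FPKM to 11.7, 11.4 and 11.9 FPKM (1.52 ± 0.10, adjusted p = 4.48e-07). Both loci had 5_Aza libraries above all Mock libraries and far under their SW means of 149 and 67.6 FPKM. Below 10 FPKM, chr10:24604201-24606517 rose from a mean of 2.55 to 7.20 FPKM (1.20 ± 0.15, adjusted p = 6.95e-05). chr1:4778235-4780791 held 0.605, 0.787 and 0.996 FPKM in Mock and 7.16, 8.12 and 6.37 FPKM in 5_Aza; it too entered through 5_Aza alone, and no test is given. Both were chosen after their values were seen.

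The highest member moved the other way. chr2:5131165-5133091 held 24.2, 24.8 and 28.8 FPKM in Mock and 5.47, 5.36 and 5.82 FPKM in 5_Aza, a log2 fold change of -2.04 ± 0.08 (adjusted p = 1.04e-08). chr5:6422414-6424155 fell from 10.96, 9.49 and 10.8 FPKM to 6.74, 8.17 and 7.22 FPKM (-0.45 ± 0.09, adjusted p = 0.00223), and chr1:36301452-36303062 from 11.1, 10.8 and 11.7 FPKM to 8.30, 9.69 and 8.77 FPKM (-0.30 ± 0.08, adjusted p = 0.0101). The libraries did not overlap in any of the 3, and the first alone passed 2-fold.

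**Figure D3:**
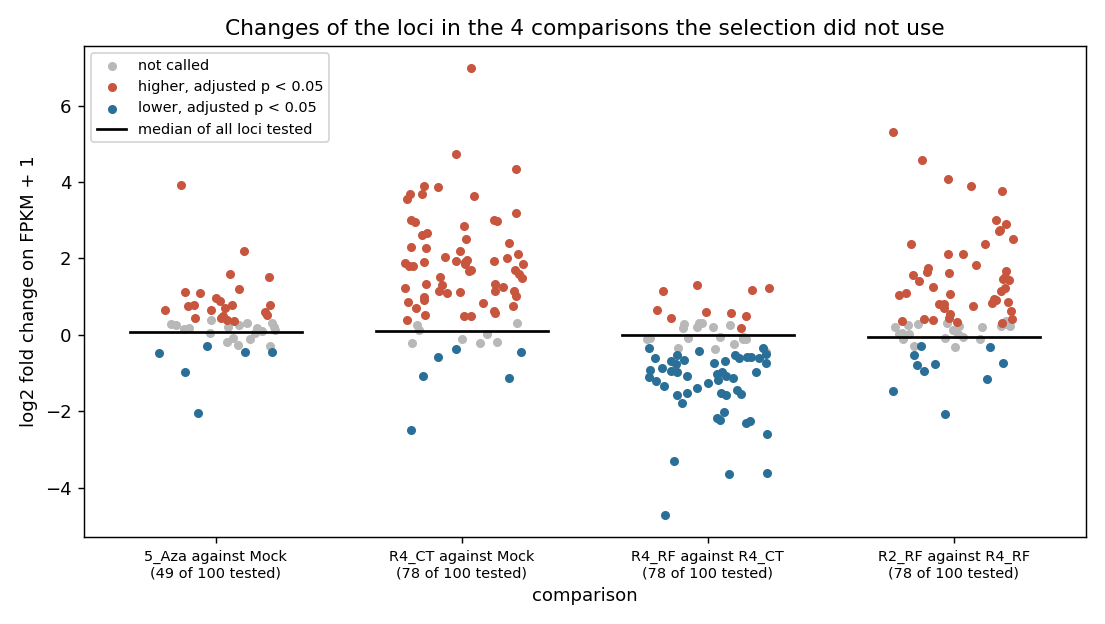
Log2 fold change of each tested member locus in 4 comparisons (5_Aza against Mock, R4_CT against Mock, R4_RF against R4_CT, R2_RF against R4_RF), on the log2(FPKM + 1) scale; each point is a locus, coloured by its call at an adjusted p of 0.05, and the black line is the median of all tested loci. The points of R4_CT against Mock lie mostly above the line, with a member median of 1.56, and those of R4_RF against R4_CT mostly below it, with a member median of -0.64.

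The plot of fold changes sets the treated flesh beside 3 comparisons that involve rind. These 3 share libraries (R4_CT and R4_RF each enter a pair of them), so their values are not independent of each other. They came from a fit of the 9 Mock and rind libraries in which 78 of the 100 members were tested among 16859 loci, and the rind groups of 2 libraries were assumed to vary like the other groups. A locus entered at 1 FPKM in any 2 of the 9 libraries, so a member present in a single group and absent elsewhere had to differ, and 22 members did not enter. Every library of the lower group was under 1 FPKM in 32 of the 64 members called higher in R4_CT than in Mock, in 17 of the 50 called lower in R4_RF than in R4_CT and in 12 of the 47 called higher in R2_RF than in R4_RF.

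At 20 DAP most tested members stood higher in R4_CT rind than in Mock flesh. Against Mock, 64 tested members were higher in R4_CT (43.3% of all tested loci were) and 6 lower (34.4%), with 52 higher (17.2%) and 3 lower (10.1%) by at least 2-fold. The median log2 fold change was 1.56 in the tested members and 0.10 over all loci. The rule capped the level in CT, flesh of the same age as Mock, and put no limit on rind. A higher level in rind was thus favoured by the choice of members, and nothing is read from these shares. All rind libraries also belong to a later block of sample numbers than the flesh libraries, and R4_CT is of cultivar 97103 while Mock has a mock label and no cultivar label. Tissue, cultivar, mock treatment and that block cannot be told apart in this comparison.

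The clearest case was chr5:4222927-4224773, listed at 0 in all 3 Mock libraries and at 121 and 130 FPKM in R4_CT (adjusted p = 3.72e-16). Its R4_CT values reached near the 135, 142 and 134 FPKM of SW, while CT flesh held 0.358, 0.674 and 0.220 FPKM. chr5:29788022-29791207 held 0.336, 0.411 and 0.287 FPKM in Mock and 33.9 and 35.2 FPKM in R4_CT, a log2 fold change of 4.73 ± 0.10 (adjusted p = 3.08e-14). Its rind values were above the 13.6, 13.7 and 15.004 FPKM of SW.

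chr6:4886044-4886403 was listed at 0 in Mock and 5_Aza and held 18.7 and 20.2 FPKM in R4_CT (adjusted p = 1.81e-13). chr2:5131165-5133091 held 383 and 418 FPKM in R4_CT, above its 20 DAP flesh in all libraries and under its SW values. In the other direction chr1:36301452-36303062 held 1.09 and 1.22 FPKM in R4_CT against 11.1, 10.8 and 11.7 FPKM in Mock (-2.50 ± 0.12, adjusted p = 2.43e-10). It was the one lower member whose higher group reached 10 FPKM.

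From 20 to 30 DAP most members that changed in R4 rind were lower. In R4_RF against R4_CT, 50 tested members were lower (27.0% of all tested loci were) and 10 higher (25.6%), with 27 lower (7.83%) and 4 higher (3.1%) by at least 2-fold. The median log2 fold change was -0.64 in the tested members and 0.01 over all loci. Without R4_CT replicate 1 the count of higher members was 6.

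chr5:4222927-4224773 fell from 121 and 130 FPKM to 3.77 and 3.87 FPKM (log2 fold change -4.71 ± 0.09, adjusted p = 3.22e-13). chr1:4778235-4780791 fell from 14.4 and 16.2 FPKM to 0.417 and 0.180 FPKM (-3.65 ± 0.15, adjusted p = 1.70e-10), and chr10:24604201-24606517 from 52.4 and 48.8 FPKM to 2.64 and 3.78 FPKM (-3.63 ± 0.16, adjusted p = 4.11e-10). All 3 thus went down in R4 rind over the interval in which flesh had long been low.

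The largest rise was at chr1:28007160-28013894, from 29.4 and 25.8 FPKM to 72.1 and 66.4 FPKM (1.30 ± 0.21, adjusted p = 0.00115). chr7:25844465-25852251 rose from 13.3 and 15.7 FPKM to 22.7 and 22.4 FPKM (0.61 ± 0.12, adjusted p = 6.15e-04). chr4:1853591-1853902 rose from 13.1 and 11.2 FPKM to 34.2 and 25.4 FPKM (1.22 ± 0.14, adjusted p = 9.88e-06), a call that was lost at a pseudocount of 0.1 FPKM (adjusted p = 0.0650). In each the R4_RF libraries lay above the R4_CT libraries.

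Both 30 DAP rind groups differed as well. In R2_RF against R4_RF, 47 tested members were higher (31.4% of all tested loci were) and 10 lower (38.4%), with 30 higher (9.37%) and 3 lower (11.1%) by at least 2-fold; at a pseudocount of 0.1 FPKM the last count was 7. The median log2 fold change was 0.59 in the tested members and -0.06 over all loci.

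chr1:12157888-12160086 held 3.61 and 2.59 FPKM in R4_RF and 160 and 158 FPKM in R2_RF (log2 fold change 5.30 ± 0.13, adjusted p = 4.32e-13). chr1:28001834-28002157 held 10.6 and 7.25 FPKM against 227 and 242 FPKM (4.59 ± 0.19, adjusted p = 3.27e-10), and chr4:8052191-8052517 held 0.307 and 0.352 FPKM against 20.5 and 22.5 FPKM. The last passed the filter through R2_RF alone, so no test is given for it. In all 3 the R2_RF libraries were above every SW library, whereas R4_CT and R4_RF were far under SW. Among the lower members chr2:4345755-4348856 held 14.9 and 16.8 FPKM in R4_RF and 2.75 and 3.21 FPKM in R2_RF (-2.08 ± 0.13, adjusted p = 8.51e-09). Smaller decreases were called at chr2:5131165-5133091 and chr5:6422414-6424155, the latter with an adjusted p of 0.0922 when R4_RF replicate 2 was left out.

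Set against 5 DAP flesh rather than against other rind, 20 members reached 50% of their SW mean in at least one rind group, against 80.8% of all loci at 10 FPKM or more in SW. By group this held for 10 members in R4_CT (76.2% of those loci), 5 in R4_RF (74.2%) and 18 in R2_RF (68.3%). In 11 members a rind group was above SW, as it was in 5308 of the 10249 loci at 10 FPKM or more in SW. The rule set a low level in flesh of other ages and put no limit on rind, and these comparisons cross the 2 file formats.

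The members highest in R2_RF were chr9:25809687-25810289, at 481 and 502 FPKM against 410, 392 and 418 FPKM in SW, then chr1:28001834-28002157 and chr4:1853591-1853902, the last at 247 and 209 FPKM. chr1:28007160-28013894 had the largest ratio to SW, with 208 and 189 FPKM in R2_RF against 45.5, 43.6 and 47.3 FPKM in SW. In R4_CT and R4_RF the highest member was chr2:5131165-5133091, followed by chr9:25809687-25810289 at 134 and 142 FPKM in R4_CT and 163 and 153 FPKM in R4_RF. In rind, then, the order of the members by level was not that of 5 DAP flesh.

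**Figure D4:**
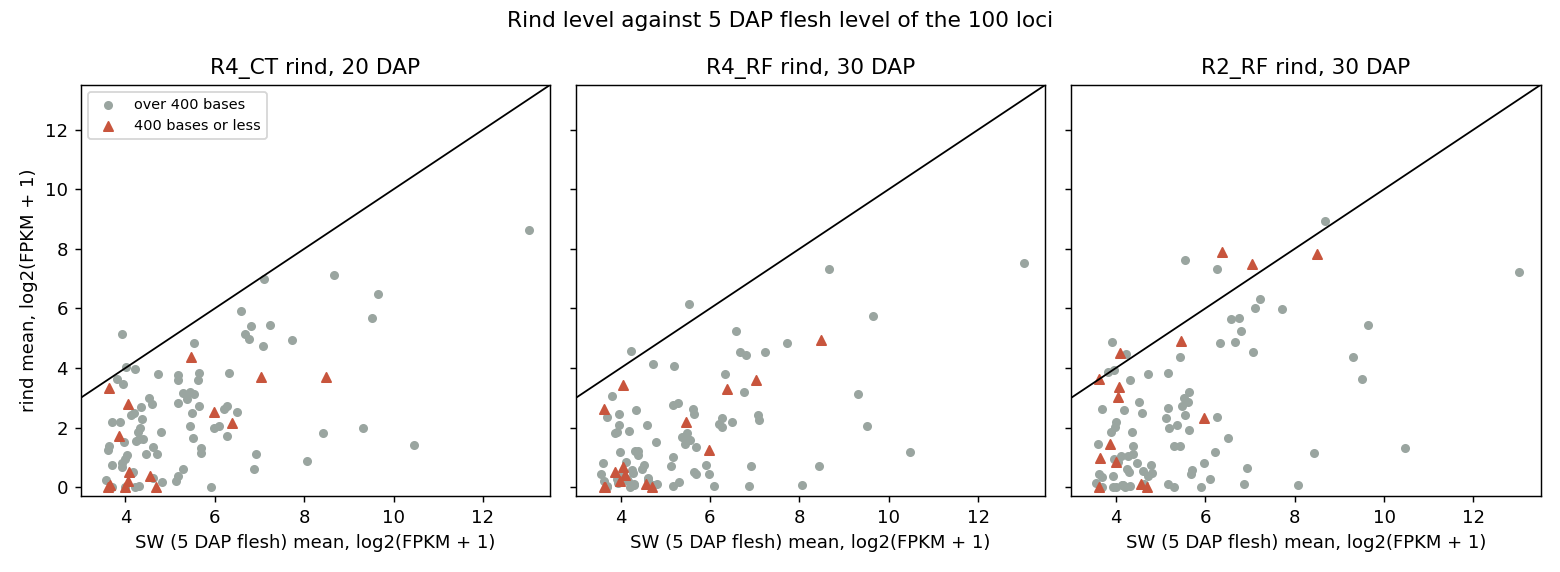
Mean level of each member locus in SW (horizontal axis) against its mean in R4_CT, R4_RF and R2_RF (vertical axis, 1 panel each), all as log2(FPKM + 1); the line marks equal levels and triangles are loci of 400 bases or less. Most points lie under the line in all 3 panels. In R2_RF 10 lie above it, against 38.0% of all loci at 10 FPKM or more in SW. Of the 15 triangles 7 reach 50% of SW in some rind group, against 80.8% of those loci at any length.

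The plot of rind against SW also shows where short loci lie. Members had a median length of 1703 bases, against 3056 bases for all loci at 10 FPKM or more in SW. Of the 100 members 15 were of 400 bases or less, a length held by 7.66% of all loci and 4.12% of those at 10 FPKM or more in SW. Of these 15 short members 7 reached 50% of SW in rind, and of the 85 longer ones 13 did. At any length, 80.8% of the loci at 10 FPKM or more in SW did. The split by length was not made for those loci, so nothing is read from it. At short lengths few reads set an FPKM value, and with depth unknown that error could not be given.

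At the opposite end 22 members were under 1 FPKM in every rind group, against 1.31% of all loci at 10 FPKM or more in SW. Of these 16 were also under 1 FPKM in CT, RF, Mock and 5_Aza (0.829% of those loci), so no group mean of 20 or 30 DAP reached 1 FPKM. The rule itself capped CT and RF, so nothing is read from that share. The highest of the 16 was chr3:30785741-30788654, at 0 in Mock, 0.111, 0 and 0.0582 FPKM in 5_Aza and 0.565 and 1.09 FPKM in R4_CT. The next were chr9:4026048-4027830 and chr6:1513895-1515862, with SW means of 38.4 and 35.2 FPKM and BW means of 18.7 and 13.6 FPKM. chr6:961164-963351 and chr6:933752-935389 held 18.8 and 14.96 FPKM in SW, no more than 0.442 FPKM in any BW library and no more than 0.158 FPKM in any older library of flesh or rind. These loci were chosen after their values were seen.

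Members lay on all 11 chromosomes and 1 was on a scaffold. Chromosomes 1 and 2 held 16 each, chromosome 5 held 11, chromosome 6 held 10, and chromosomes 10 and 11 held 4 and 3. As a share of a chromosome's loci this ranged from 0.157% on chromosome 11 to 0.699% on chromosome 4. In 10 places members stood next to each other or with a single other locus between them, and 21 members lay in such runs. Runs were not counted for other sets of loci, so whether 21 is many or few is not known.

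The longest run held 3 members on chromosome 4: chr4:1767161-1771022, chr4:1839296-1839637 and chr4:1853591-1853902. The first held 11.2, 11.2 and 11.1 FPKM in SW and 2.10 and 1.41 FPKM in R2_RF. The second held 125, 135 and 131 FPKM in SW and 178 and 179 FPKM in R2_RF, with values in Mock at 0. The third, at 359 FPKM in SW, was likewise high in R2_RF (247 and 209 FPKM), so the last 2 of the run shared the pattern in rind and the first did not.

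On chromosome 1, the neighbours chr1:28001834-28002157 and chr1:28007160-28013894 were both above SW in both R2_RF libraries. They differed in 20 DAP flesh, where the first was listed at 0 in all Mock libraries and the second held 9.62, 5.64 and 5.83 FPKM. On chromosome 8 the adjacent loci chr8:19889494-19891109 and chr8:19897309-19899364 were alike in most groups. They held 46.1, 47.8 and 50.2 FPKM and 48.7, 50.1 and 47.8 FPKM in SW, and 7.01, 5.88 and 5.35 FPKM and 7.37, 6.12 and 6.77 FPKM in BW. Neighbouring loci of similar sequence could share reads, so the split between them is uncertain. The pair on chromosome 8 was chosen after its values were seen. On chromosome 2, the adjacent loci chr2:29360659-29362678 and chr2:29362909-29365262 held 10.8, 12.1 and 12.9 FPKM and 23.3, 24.0 and 23.0 FPKM in SW. In R2_RF they held 0.0879 and 0.431 FPKM and 0.490 and 0.449 FPKM, so this pair was low in R2_RF, unlike the pair on chromosome 1. All 9 runs of 2 members tie in length, and those on chromosomes 1 and 2 come first in genome order.

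**Figure D5:**
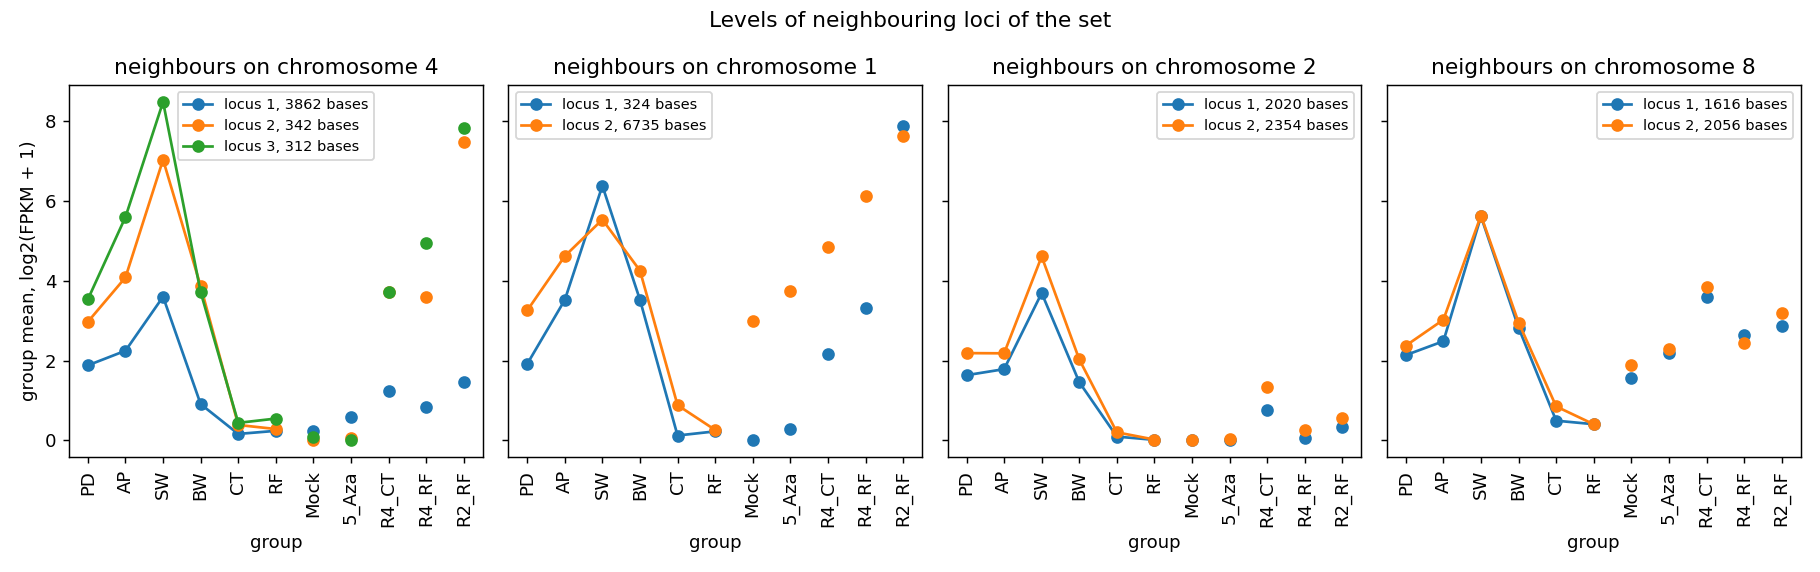
Levels of neighbouring member loci on chromosomes 4, 1, 2 and 8 by group, as log2(FPKM + 1); each colour is a locus, numbered in order of position, each point a group mean, and lines join the flesh stages. All loci have their highest flesh value in SW, and on chromosomes 4 and 1 all but chr4:1767161-1771022 are also high in R2_RF, while those on chromosome 2 are low there.

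The plot of neighbours shows that members side by side need not share a level. On chromosome 6, chr6:951879-954974 at a mean of 635 FPKM in SW lay next to chr6:961164-963351 at 18.8 FPKM, and the former kept 253 FPKM at 10 DAP while the latter was at 0.419, 0.442 and 0.427 FPKM.

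The thresholds cut through a continuous range of loci. On the SW level, the members just inside were chr11:30071089-30092157 at 10.8 FPKM and chr4:1767161-1771022 at 11.1 FPKM, and the loci just outside were chr2:6867736-6868083 and chr7:25223352-25229580, at 9.94 and 9.93 FPKM. On the ratio to 0 DAP, chr1:29628588-29629076 and chr1:4508525-4510479 were just inside at 4.02 each, and chr1:3260387-3264019 and chr2:24114734-24116977 just outside at 3.83 and 3.75. On the ratio to 10 DAP, chr6:763946-764512 and chr9:4026048-4027830 were just inside at 2.06 each, and chr5:8210072-8210302 and chr5:4552760-4558076 just outside at 1.97 each. The 0 DAP threshold was the one that kept most loci out, with 642 loci failing it alone, against 426 for the SW level, 60 for 10 DAP, 5 for 30 DAP and 2 for 20 DAP.

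On the ratio to 20 DAP, chr9:7038703-7039332 and chr6:28811479-28813188 were just inside, at 4.02 each, and chr4:22887707-22888177 and chr8:26398563-26399042 just outside, at 3.61 and 2.47. For 30 DAP, chr9:7038703-7039332 at 4.23 and chr3:3219824-3220075 at 5.08 were just inside, and chr7:30663292-30666272 at 3.67 and chr2:31660903-31661666 at 3.59 just outside. These last thresholds decided few loci, by the counts given for each.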

How the data were processed

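The authors deposited FPKM per locus, per the file headers, 1 file per library, already divided by length and library total, so read depth is unknown. Named in the submitters' processing notes are fastp, HISAT2 and SAMtools 1.5. Neither the quantifier nor the annotation is given in the sources used here. Summed FPKM per library ran from 762714 to 886495, and 14165 to 16150 loci reached 1 FPKM. Of 30 libraries 28 were used. In PD replicate 3, 11643 values were shifted by 1 row, and they then correlated with PD replicate 1 at 0.993 in place of 0.119. AP replicate 3 was matched with start + 1. Blocks of 50 rows correlating under 0.8 with their group were left out (1 in AP replicate 3, 1 in CT replicate 1). In AP replicates 1 and 2 values did not follow the loci. All these repairs were decided after the data were seen.

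Tests used limma 3.58.1 in R 4.3.3 (trend, robust) on log2(FPKM + 1), which understates changes of low loci. A locus was tested if 1 FPKM was reached in 3 libraries (5_Aza and Mock) or 2 (the fit with rind). Benjamini-Hochberg adjustment ran over all tested loci, with a threshold of 0.05. The code was tested on simulated data. The member loci, lists and tests were chosen with earlier results of these data known. Named loci are the 15 highest at 5 DAP and the 3 highest in Mock, each rind group and 1 DAP. Also named are the 3 with the largest ratio of SW to 1 DAP, where 1 DAP was above 0. The same holds for the 3 with the largest ratio to the next of PD, BW, CT and RF. Up to 3 per direction had the largest called change (replicates apart, 10 FPKM or more in the higher group). Named as well are the longest runs of neighbours and 2 loci on each side of each threshold.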

Additional observations from a re-analysis of the deposited data

How the results depend on the processing

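The number of loci meeting the rule was 61 with an SW level of at least 20 FPKM, 179 with ratios of 3 and 1.5, and 45 with ratios of 6 and 3. It was 125 with at least 5 FPKM, 90 with median-of-ratios scaling, and 99 to 101 when single libraries were left out. With each library of 5_Aza or Mock left out, the members higher in 5_Aza numbered 15 to 23, the lowest without 5_Aza replicate 1. In R4_RF against R4_CT the higher members numbered 6 to 8, the lowest without R4_CT replicate 1. Median-of-ratios scaling raised the count of all loci lower in 5_Aza from 2064 to 3479. The cause was not tested. Of the changes of named loci under alternatives, 229 kept their direction and side of the threshold, 2 lost the call and none reversed. chr2:33199676-33201140 has no value without any one 5_Aza replicate, and chr4:8052191-8052517 none in R2_RF against R4_RF without any one R2_RF replicate, because they then missed the filter.

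Same-numbered replicates were not taken as pairs: the correlations of their deviations from the group means were -0.05, 0.01 and -0.12 in Mock and 5_Aza, 0.05 and 0.01 in Mock and R4_CT, 0.03 in R4_CT and R4_RF and 0.13 in R4_RF and R2_RF. The labels do not say that a number marks a shared fruit or day. With the replicate number as a block, 22 members were higher and 6 lower in 5_Aza, 64 higher and 5 lower in R4_CT against Mock, 11 higher and 49 lower in R4_RF against R4_CT, and 47 higher and 10 lower in R2_RF against R4_RF. Depth is unknown, so the error of low and short loci could not be given.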
